A study of Mus musculus with 8 samples.

Results

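The miR-290 to miR-295 cluster comprised every mouse miRNA on the arrays whose name begins miR-290, miR-291a, miR-291b, miR-292, miR-293, miR-294 or miR-295, in any arm, which gave 14 of the 567 mouse miRNAs measured. Of these, 7 were 5p arms, cut from the left side of the hairpin, and 7 were 3p arms, cut from its right side. On these arrays the names miR-293, miR-294 and miR-295 stand for 3p arms, and their starred names stand for the 5p arms. The members were chosen by name with earlier results of these arrays known, in which some of them read higher with CpG, so their differences between the groups are descriptions. Where the fit across all miRNAs passes a member, that is counted beside the share of all miRNAs passed, and it supports nothing about the members. The CpG group held 4 samples of dendritic cells exposed overnight to the class B oligonucleotide ODN1826 at 10 µM, a short DNA with unmethylated CG pairs that Toll-like receptor TLR9 senses. The untreated group held 4 samples kept overnight without it, with a control that the labels describe as medium alone in one place and as PBS in another. Both groups were grown from C57BL/6 mouse marrow in 40 ng/ml of the growth factor GM-CSF, which turns marrow cells into dendritic cells, and were harvested as non-adherent cells on day 9. The labels do not say that the samples came from separate animals or cultures, so any spread between them may be technical. The array names number both groups DC1 to DC4, so same-numbered samples may be pairs, which the labels do not state.

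The cluster, known for its role in pluripotent cells, is transcribed as a single precursor in mouse embryonic stem cells and is shut off when those cells differentiate. It is known as a main source of miRNAs in that state and is not a usual part of the miRNA repertoire of myeloid cells. A miRNA recognises its targets mainly through its seed, bases 2 to 8 from the 5′ end, and several 3p arms of the cluster share a seed that supports the rapid cell cycle of embryonic stem cells through inhibitors of entry into S phase. Since all members come from one precursor, their genes lie in a row. The arrays place their targets on chromosome 7 between positions 3218647 and 3220838 in the mm9 annotation of the array design.

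The mature sequences show how closely the members resemble each other. A probe has to tell apart only the part of them that it targets. For the detected 5p arms the targets lie at the 3′ end and span at most 14 of 22 bases, or 12 for miR-291b-5p. Little or none of the seed is therefore in what those probes bind. RefSeq (GRCm38.p6) gave a sequence for 13 of the 14 members. The members below are those that were detected, together with the relatives they are compared with, and capitals mark the seed.
miR-290-5p: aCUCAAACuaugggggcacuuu
miR-292-5p: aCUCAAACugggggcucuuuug
miR-293*: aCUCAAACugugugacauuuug
miR-295*: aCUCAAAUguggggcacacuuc
miR-291b-5p: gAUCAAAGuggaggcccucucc
miR-291a-5p: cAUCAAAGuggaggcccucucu
miR-294: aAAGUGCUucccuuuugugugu
miR-291a-3p: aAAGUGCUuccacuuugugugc
miR-295: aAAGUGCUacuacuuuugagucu

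The 5p arms miR-290-5p, miR-292-5p and miR-293* had the same seed, CUCAAAC. miR-291a-5p and miR-291b-5p shared the seed AUCAAAG and were identical at 20 of 22 bases. They differed by G1C and C22U, where the first letter is the base of miR-291b-5p, the number is the position from its 5′ end and the last letter is the base of miR-291a-5p. The 3p arms miR-291a-3p, miR-294 and miR-295 shared AAGUGCU. Written in the same way from miR-294 to miR-291a-3p, the differences were C12A, U13C and U22C.

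The arrays were read in a single colour, and the signal is given in linear intensity units after the scanner software had subtracted background. Probes bind with different strength, so a signal set beside that of another probe is a brightness and not an amount of RNA. The 75th percentile of signal, taken over the 177 miRNAs that every array detected, was 217 ± 58.5 units on CpG arrays and 122 ± 17.5 on untreated arrays (SD, n = 4 each; exact two-sided permutation p = 0.0286, the smallest that 70 arrangements allow). CpG arrays detected 223 ± 11.6 mouse miRNAs and untreated arrays 195 ± 5.56 (exact two-sided permutation p = 0.0286), where a detection flag is set within each array before any scaling. Negative control spots averaged 0.336 ± 0.607 units on CpG arrays and 0.693 ± 0.198 on untreated arrays (exact two-sided permutation p = 0.343). All 6 myeloid miRNAs looked up for the labelled cell type, among them miR-223 and miR-155, were detected, against 0 of 3 erythroid, 0 of 3 endothelial or stromal, 2 of 3 lymphoid and 3 of 6 epithelial ones.

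Most of the cluster was not seen. In all, 10 of the 14 members were not detected on any array, and 4 were detected on at least 1. Over all mouse miRNAs 45.1% were detected at least once. The 4 were not all 5p arms: miR-290-5p, miR-291b-5p and miR-292-5p are 5p arms and miR-294 is a 3p arm, so detection reached 3 of 7 5p arms and 1 of 7 3p arms. No hairpin had both arms detected. miR-290-5p was flagged as detected on 4 CpG arrays and 3 untreated arrays. miR-291b-5p and miR-292-5p were each detected on 4 CpG arrays and 1 untreated array. miR-294 was detected on 3 CpG arrays and on no untreated array. Thus 4 of the 14 members were detected on more CpG than untreated arrays, beside 11.3% of all 567, and none went the other way, beside 1.06%. The CpG arrays were also the brighter ones, and the part of brightness in these flags was not tested. In bulk RNA, a miRNA present in few cells and a miRNA present at a low level in all cells cannot be told apart.

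Of the 1554 spots of the 10 undetected members that carried no outlier flag, 0 were well above background. The signals of these members, averaged over the probes of each on each array, ranged from -1.72 to 3.09 units with CpG. On untreated arrays they ranged from -1.11 to 1.17, and the medians were -0.48 with CpG and -0.46 untreated. Of their 33 probes, 24 averaged 0 or less on CpG arrays and 22 on untreated arrays. The highest was miR-295*, the 5p arm of miR-295, at 2.09 ± 0.857 units with CpG and 0.804 ± 0.163 untreated (SD, n = 4 each). Of its 4 probes, those with target spans of 11 and 12 bases lay above the highest negative control probe on all 4 CpG arrays, and on 3 and 0 untreated arrays. The 12-base probe averaged 3.99 ± 1.05 units with CpG and 1.09 ± 0.497 untreated, and its groups did not overlap before scaling. It was picked from the 33 probes, the CpG arrays were the brighter ones, and the share of probes separated in this way was not computed. At 11 bases the groups did not overlap before scaling either. They overlapped at 10 bases, with -0.71 ± 0.391 units with CpG and -0.36 ± 0.583 untreated. They also overlapped at 13 bases, with 1.36 ± 1.22 with CpG and 0.963 ± 0.579 untreated. miR-291a-3p, which shares its seed and 19 of 22 bases with miR-294, stood at 1.18 ± 0.752 units with CpG and 0.313 ± 0.726 untreated. miR-295, the remaining member of that seed group, averaged -0.69 ± 0.421 with CpG and -0.41 ± 0.0965 untreated. The 3p arm miR-290-3p averaged 1.12 ± 0.884 units with CpG and 0.895 ± 0.206 untreated. The remaining 6 (miR-291a-5p, miR-291b-3p, miR-292-3p, miR-293, miR-293* and miR-294*) averaged below 0 in both groups.

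**Figure D1:**
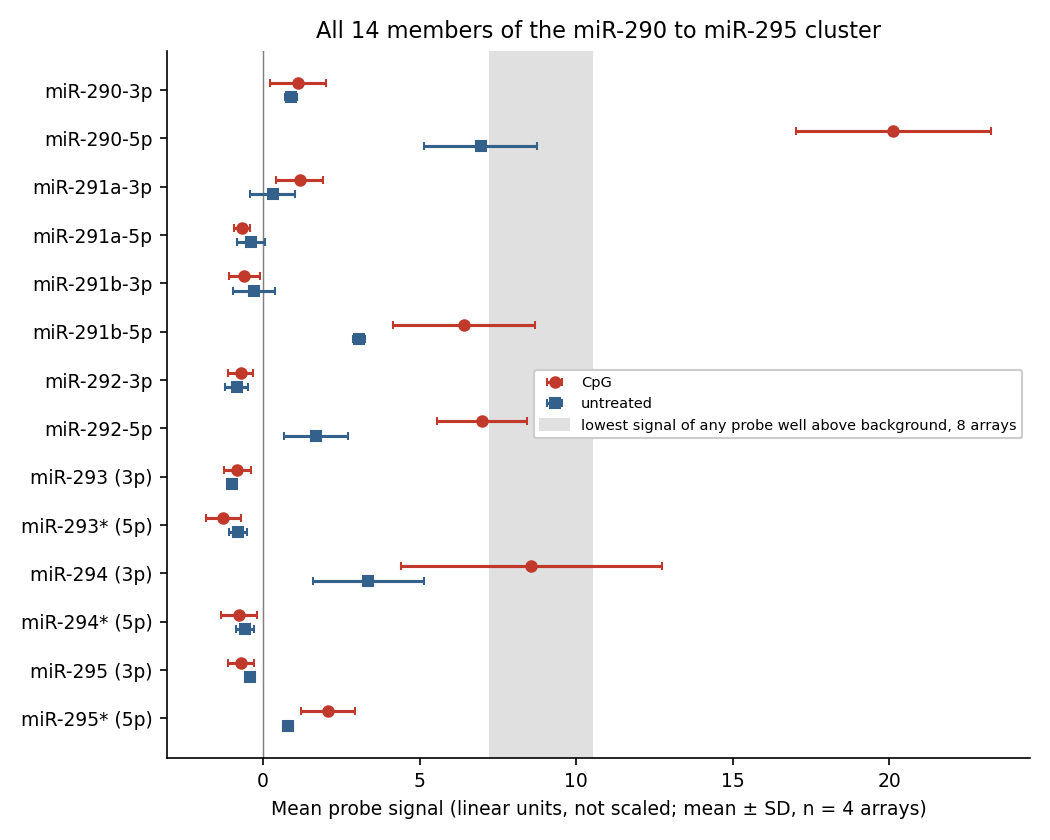
Mean probe signal in linear units (x axis; mean ± SD over 4 arrays) for all 14 members, with CpG above untreated in each row and the shaded band spanning the lowest signal of any probe well above background on the 8 arrays, 7.26 to 10.5 units. Only miR-290-5p with CpG lies wholly above the band, and the 10 undetected members average between -1.26 and 2.09 units.

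miR-290-5p, the 5p arm of the first hairpin, was the brightest member in both groups. It read 17.9, 18.7, 19.1 and 24.7 units on the 4 CpG arrays, against 5.02, 5.90, 7.88 and 8.99 on the 4 untreated arrays. All CpG values lay above all untreated values before scaling, and the means were 20.1 ± 3.1 units with CpG and 6.95 ± 1.81 untreated (SD, n = 4 each). The CpG arrays were the brighter ones, and the share of all miRNAs separated in this way before scaling was not computed. Among the 567 mouse miRNAs it ranked between 126 and 141 on CpG arrays and between 139 and 174 on untreated arrays. Of its spots, 77 of 78 were well above background on CpG arrays and 20 of 80 on untreated arrays.

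miR-292-5p, the 5p arm with the same seed, read 5.56, 5.98, 7.87 and 8.53 units on CpG arrays, against 0.544, 1.34, 1.93 and 2.99 on untreated arrays. These unscaled values did not overlap either, with means of 6.99 ± 1.44 units with CpG and 1.70 ± 1.03 untreated (SD, n = 4 each). The same limit of array brightness holds for them. On CpG arrays 24 of 80 spots were well above background, and on untreated arrays 0 of 77 were.

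miR-294, a 3p arm with the seed of embryonic stem cell miRNAs, read 2.87, 8.33, 10.6 and 12.5 units on CpG arrays, against 1.86, 2.35, 3.42 and 5.85 on untreated arrays. The groups overlapped, because the lowest CpG array fell among the untreated ones. The mean was 8.57 ± 4.17 units with CpG and 3.37 ± 1.78 untreated. Spots well above background numbered 34 of 80 with CpG and 0 of 78 untreated, and 20 of the 34 were on CpG replicate 4, the brightest array.

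miR-291b-5p read 3.40, 6.00, 7.93 and 8.34 units on CpG arrays, against 2.83, 3.05, 3.12 and 3.30 on untreated arrays. Before scaling, and under the same limit of brightness, the lowest CpG array lay just above the highest untreated one. The means were 6.42 ± 2.26 with CpG and 3.08 ± 0.194 untreated. Of its spots 20 of 79 were well above background with CpG and 0 of 78 untreated. For miR-294 and for miR-291b-5p alike, the order of the 4 CpG arrays by signal was the order of the same arrays by 75th percentile, which ran 157, 180, 252 and 280 units. The untreated arrays did not keep such an order. On untreated replicate 1, the dimmest at 101 units, miR-291b-5p was at its highest, 3.30, and miR-294 read 3.42. The highest untreated value of miR-294, 5.85, was on replicate 3, the brightest of that group at 144 units.

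**Figure D2:**
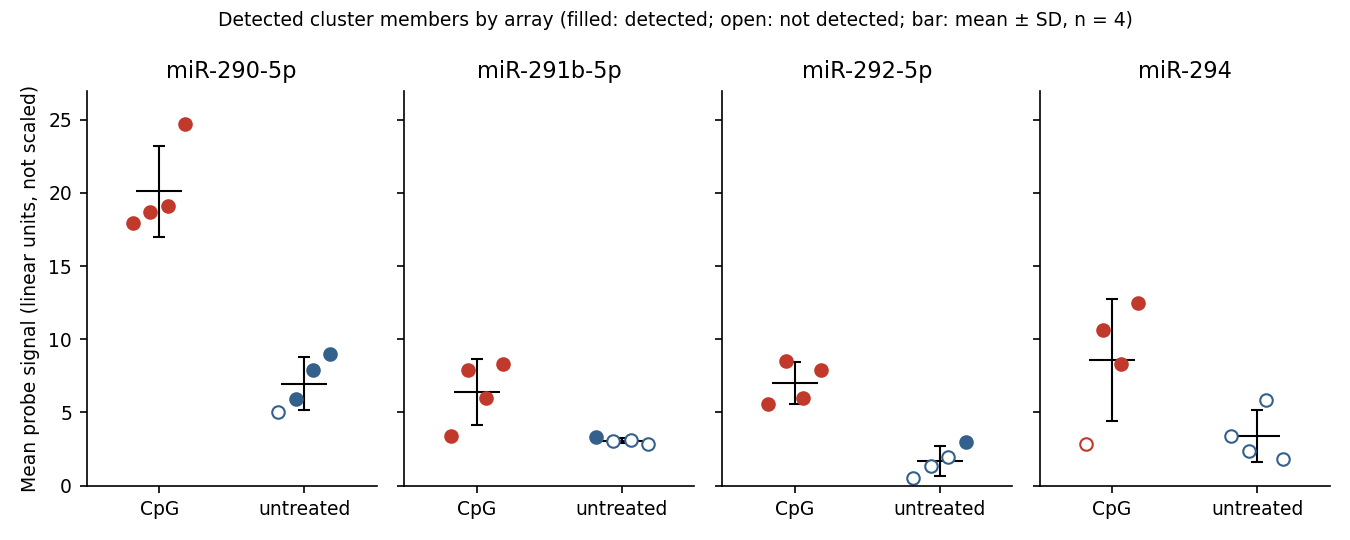
Mean probe signal in linear units before scaling (y axis) for the 4 detected members, 1 point per array, with CpG left of untreated, filled points for arrays where the miRNA was detected, and bars for the mean ± SD (n = 4). miR-290-5p lies between 17.9 and 24.7 units with CpG and between 5.02 and 8.99 untreated, and 1 CpG array of miR-294 falls among its untreated values.

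To take out array brightness, each signal was divided by the 75th percentile of its array and put on the log2 scale, with values below a floor of -6.55 set to it. The 4 detected members were among the 212 miRNAs (37.4% of 567) detected on at least 3 of 4 arrays of a group and so fitted together. The log2 difference, CpG minus untreated, was 0.76 ± 0.20 for miR-290-5p, 1.22 ± 0.26 for miR-292-5p, 0.50 ± 0.38 for miR-294 and 0.18 ± 0.19 for miR-291b-5p (SE, limma). The value of miR-292-5p rests on the floor, which its untreated arrays reach or approach: it was 0.55 with a floor 2 times higher and 1.47 with one 2 times lower. Of the 4, miR-292-5p, miR-294 and miR-291b-5p entered the fit only through the CpG arrays, where they were detected more often, so a median over the 4 is partly set by that filter. The median of the 4 was 0.63, and that of all 212 tested miRNAs was -0.19. Relative to that median, the members stood at 0.95, 1.41, 0.69 and 0.37 on the log2 scale in the same order. Without scaling the median of all 212 was 0.60, and the members stood 0.96, 1.14, 0.69 and 0.38 above it.

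No fold is given for any member. For miR-290-5p, at least 50% of the spots were well above background on 1 of 4 untreated arrays only. For miR-292-5p, miR-294 and miR-291b-5p, none of the probes had at least 50% of its spots well above background on any untreated array and the lowest signal called well above background there, once scaled, exceeded their mean with CpG. The log2 differences are therefore differences between measured dim signals, and for miR-292-5p 1 untreated array sat at the floor. In the fit across all miRNAs, 2 of the 4 members, miR-290-5p and miR-292-5p, passed an adjusted p of 0.05 (limma, Benjamini-Hochberg), both higher with CpG, beside 14.2% of the 212 in either direction with 7.55% higher and 6.60% lower with CpG. After scaling only miR-292-5p had groups that did not overlap, beside 7.08% of the 212 higher and 19.8% lower with CpG. The choice of the members used this contrast, so nothing is read from these counts.

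These counts moved with the arrays. miR-290-5p missed the threshold when CpG replicate 3 or 4 or untreated replicate 1, 2 or 3 was left out, with differences between 0.68 and 0.79. miR-292-5p missed it without CpG replicate 2 or 3 or untreated replicate 1 or 2, with differences between 1.09 and 1.21. With normexp background correction and its offset of 50 units, all 4 differences turned negative, between -0.24 and -0.19, while the median of all 212 was -0.26. The background model and the offset changed together there, and which of them turned the sign was not tested.

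**Figure D3:**
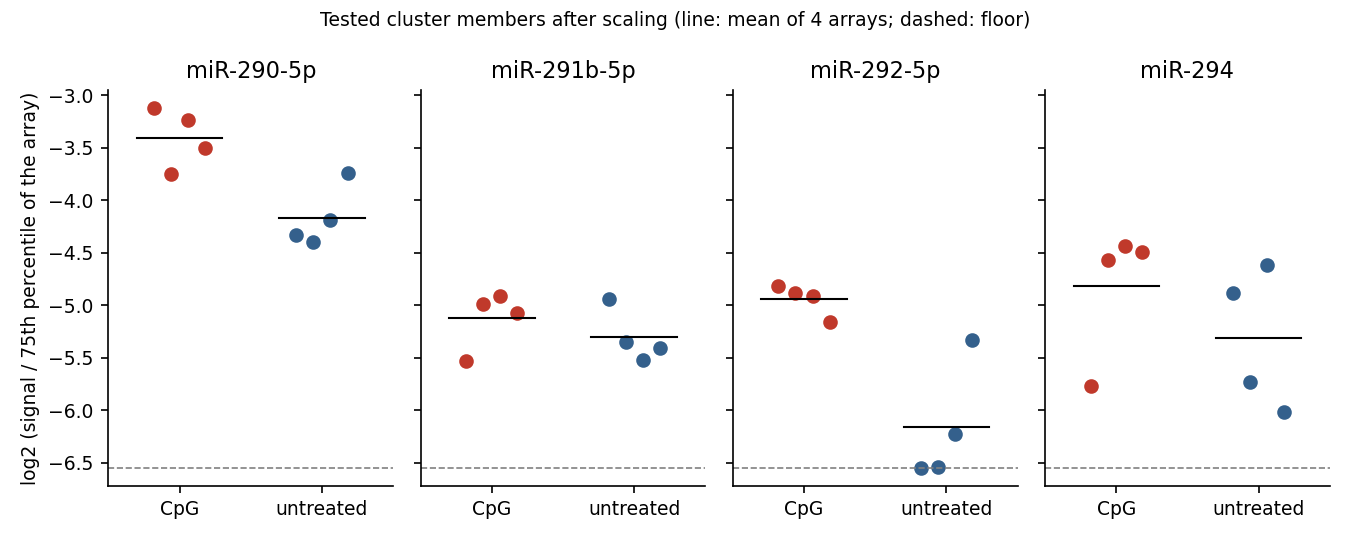
Scaled signal as log2 of signal over the array's 75th percentile (y axis) for the 4 tested members, 1 point per array, CpG left of untreated, with the line at the mean of 4 arrays and the dashed line at the floor of -6.55. After scaling the groups of miR-290-5p, miR-291b-5p and miR-294 overlap and those of miR-292-5p do not.

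**Figure D4:**
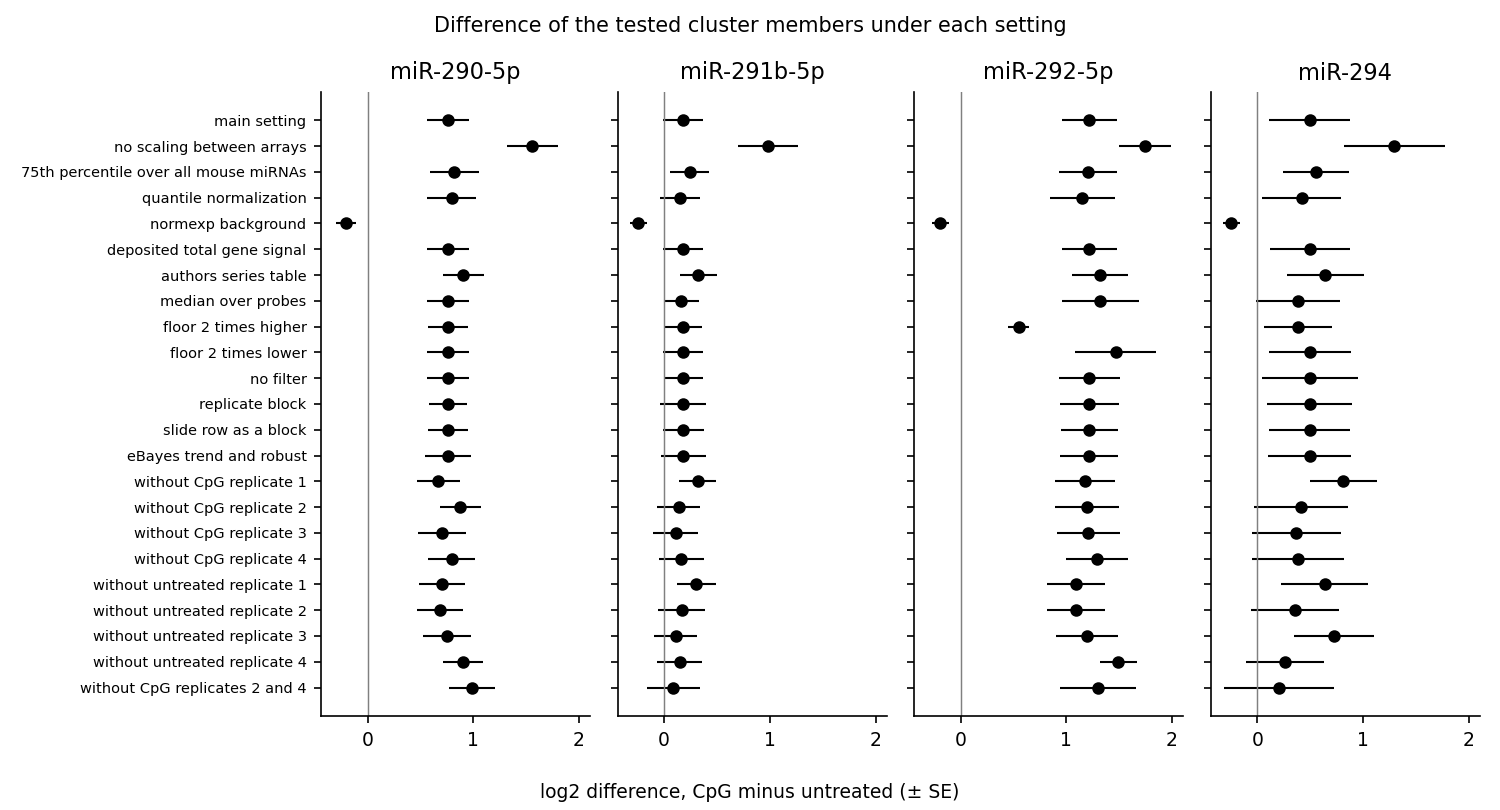
CpG minus untreated log2 difference ± SE (x axis) of the 4 tested members under the main setting and each alternative (rows). The differences lie to the right of 0 in every row other than the one with normexp background, where they lie between -0.24 and -0.19.

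Each miRNA was read by 2 to 4 nested probes whose targets share the 3′ end and differ in how far they extend towards the 5′ end. Over all 1646 mouse probes with a listed target, the span from start to end had a median of 16 bases and ran between 8 and 23. The 4 probes of miR-290-5p all gave signal, between 14.4 and 24.3 units with CpG and between 5.71 and 8.13 untreated. They were brightest at a span of 12 bases, with 24.3 ± 4.24 units with CpG and 8.13 ± 2.52 untreated. The 3 probes of miR-294, with spans of 18 to 20 bases, read between 7.84 and 9.75 units with CpG and between 3.29 and 3.47 untreated, and differed by less than the SD over arrays. Their shortest target was the brightest by mean with CpG and over all 8 arrays. On untreated arrays the 19-base one was, at 3.47 units against 3.35 for the shortest.

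On miR-291b-5p the pair of probes with the shortest targets was the brighter one. At a span of 9 bases the probe read 10.8 ± 4.14 units with CpG and 4.41 ± 1.08 untreated, and at 10 bases 8.74 ± 2.43 with CpG and 4.96 ± 0.935 untreated. The pair with longer targets was dim, with 2.55 ± 1.17 units with CpG and 1.40 ± 0.816 untreated at 11 bases, and 3.57 ± 1.73 with CpG and 1.54 ± 0.496 untreated at 12 bases. On each of the 8 arrays the probe with the shortest target read above both longer ones at 11 and 12 bases, of whose spots 1 was well above background. Among the 62 tested miRNAs with at least 3 target lengths, the shortest read brighter than the longest in 11.3%, miR-291b-5p and miR-294 included. A target span of 9 bases or less was listed for 31 of the 1646 probes, or 1.88%.

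The probes of miR-292-5p ran the other way. At a span of 11 bases the probe averaged 2.03 ± 5.15 units with CpG and -0.73 ± 0.820 untreated, where the CpG mean came from 1 array at 9.70 units. At 13 bases it averaged 13.1 ± 2.93 units with CpG and 3.87 ± 1.5 untreated, and 17 of 20 CpG spots were well above background. miR-291a-5p, which differs from miR-291b-5p only at its first and last base, averaged between -0.96 and -0.33 units with CpG over its 4 probes and between -1.03 and 0.418 untreated. Its spans of 11 to 14 bases overlap those of miR-291b-5p at 11 and 12.

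**Figure D5:**
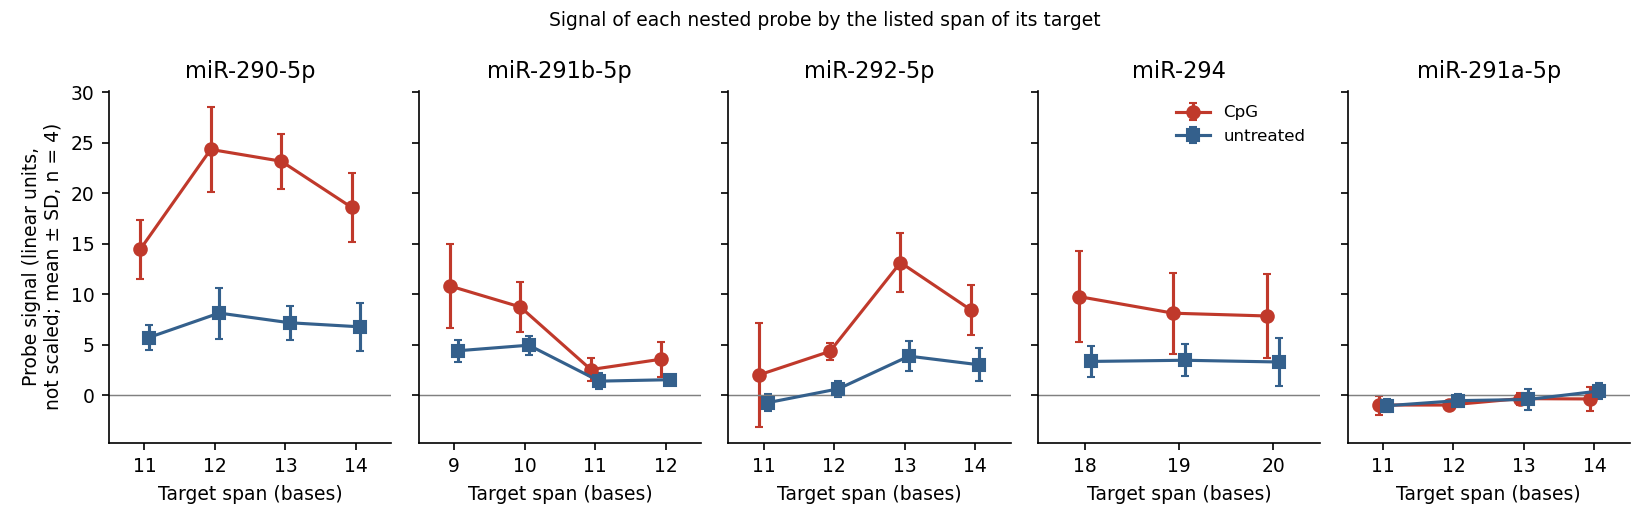
Signal of each nested probe in linear units (y axis; mean ± SD, n = 4 arrays) by the listed span of its target in bases (x axis) for the 4 detected members and for miR-291a-5p, with CpG and untreated as separate lines. miR-290-5p and miR-294 read above 0 on every probe, miR-291b-5p falls between spans of 10 and 11 bases, and miR-291a-5p stays near 0.

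Outside the cluster, the nearest relatives by sequence were looked up among the 311 of 567 mouse miRNAs matched to a single RefSeq sequence, so relatives among the others were not searched. miR-294 shared its longest stretch with miR-302b and miR-302c, 10 bases that include the seed of miR-294. Those belong to the miR-302 family, the other miRNA family of pluripotent cells. miR-302b was not detected and averaged -0.90 ± 0.350 units with CpG and -0.31 ± 0.383 untreated. miR-302c was detected on 1 CpG array, at 10.8 units, and averaged 3.67 ± 4.90 with CpG and 0.680 ± 0.843 untreated. Over the miR-302 and miR-367 arms, 2 of 8 were detected on any array; the other was miR-302c*, detected on 3 CpG arrays and on no untreated array, at 3.26 ± 2.10 units with CpG and 0.895 ± 0.562 untreated.

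The miR-17 family, whose seed overlaps that of miR-294 and which dividing cells generally express, was detected for 6 of 6 miRNAs on all arrays. Its median log2 difference was -0.34, beside -0.19 over all 212 tested miRNAs, and 0 of 6 passed the adjusted threshold in limma. At an unadjusted p under 0.05, 0 of the 6 were higher and 4 lower with CpG, beside 29 higher and 56 lower of all 212. miR-17 shares 9 bases with miR-294 and averaged 11.4 ± 2.29 units with CpG and 8.25 ± 0.724 untreated. For the 5p arms the longest shared stretches were shorter. The longest for miR-290-5p was 8 bases with miR-17*, which averaged 24.5 units with CpG and 17.8 untreated, with a log2 difference of -0.38 after scaling. It shared 7 bases with miR-147, at 55.9 units with CpG and 16.0 untreated and a log2 difference of 0.97. That stretch lies at bases 4 to 10 of miR-290-5p, mostly outside its probe targets, which span at most 14 bases at the 3′ end. miR-290-5p also shared 7 with miR-680, a run that holds its 5 consecutive G. miR-680 averaged 50.4 ± 7.42 units with CpG and 17.7 ± 5.95 untreated, a log2 difference of 0.76. miR-291b-5p shared 8 bases with miR-296-3p, which was not detected, and 7 each with miR-17 and miR-188-5p, whose log2 differences were -0.35 and -0.31. The stretch shared with miR-17 lies at bases 4 to 10 of miR-291b-5p, mostly or wholly outside its probe targets, which span at most 12 bases. miR-292-5p shared 7 bases each with miR-127* and miR-29a*, neither of them detected, and 6 with miR-128, at -0.17. miR-128 came first by name among the miRNAs sharing 6. miR-680, whose values are given above, also shared 6 with miR-292-5p, a run that holds 5 consecutive G. A run of 4 G, which miR-290-5p, miR-292-5p and miR-295* hold, was found in 18 other matched miRNAs, of which 10 were detected, 9 were tested with a median log2 difference of -0.05, and 0 passed the adjusted threshold in limma. At an unadjusted p under 0.05, 2 of the 9 were higher and 3 lower with CpG. Of the 99 tested miRNAs outside the cluster matched to a sequence with no such run, 5 were higher and 6 lower past the adjusted threshold, 7 higher and 31 lower unadjusted, and the median was -0.24. Because fewer than 80% of the miRNAs had a matched sequence, no share over the whole array is drawn from this. Whether the members' signals come from the cluster's own transcript or from other RNAs bound by the same probes was not tested.

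The 4 members did not all vary together over the arrays. The scaled log2 signals of miR-290-5p and miR-292-5p had a Pearson correlation of 0.93 over the 8 arrays, and miR-291b-5p and miR-294 had 0.65. The other 4 pairs lay between 0.06 and 0.14. These are descriptions over arrays that share a treatment, a slide and a scaling. Within the 4 CpG arrays the first pair had 0.33 and the second 0.98, and within the 4 untreated arrays the first had 0.995 and the second 0.19. The 0.995 rests on values of miR-292-5p at or near the floor, -6.55, -6.54 and -6.22, with untreated replicate 4 at -5.33.

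By the same measure, the tested miRNAs outside the cluster most like miR-290-5p were miR-135a* (0.96), miR-680 (0.95) and miR-874 (0.88). Those most like miR-292-5p were miR-680 (0.91), miR-135a* (0.90) and miR-877 (0.84). miR-135a* averaged 24.9 ± 2.59 units with CpG and 8.09 ± 1.98 untreated, close in level to miR-290-5p. For miR-294 they were miR-485*, miR-483* and miR-328, each at 0.98. Like miR-294, miR-483* was dimmest among CpG arrays on replicate 1, at 15.0 units against 39.3 to 58.0 on the other 3, and it averaged 42.2 ± 20.02 with CpG and 16.1 ± 7.26 untreated. For miR-291b-5p the highest were miR-764-5p (0.68), miR-302c* (0.66) and miR-483* (0.65).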

How the data were processed

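Total RNA from 4 CpG and 4 untreated samples was labelled with Cy3 and hybridised to the 8 arrays of 1 slide. Per the file headers, the authors deposited scanner output of Agilent Feature Extraction 9.5.3.1, with a processed signal per spot, an intensity after background subtraction and spatial detrending, not scaled between arrays, and a summary per array that lists a detection flag and the summed intensity of each miRNA. The authors' series table covered 260 miRNAs, and 2080 of 2080 entries matched those summed intensities. An entry counted as a match within 0.1%, or where it stood at a fixed low value and the summed intensity was no higher than that value. The submitters' processing notes name limma, and the sources used here do not say how it was applied.

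Processed signals were averaged over spots without outlier flags (56 of the members' 2240 spots were left out, and 0 were saturated), then over the probes of a miRNA. They were divided by the array's 75th percentile over the 177 miRNAs detected on all 8 arrays, raised to a floor of 0.0107 (the lowest scaled signal of a detected miRNA, as the median of the arrays) and put on the log2 scale. The 212 miRNAs detected on at least 3 of 4 arrays of a group were fitted with lmFit and eBayes of limma 3.58.1 in R 4.3.3, with Benjamini-Hochberg adjustment over all 212 at 0.05. The fit was run on simulated data with changes larger than the members' differences, so that check does not bear on differences of their size. Array measures were compared by exact permutation in Python 3.11.15. The number of arrays limits the precision. The members, the comparison lists and the rules for naming miRNAs were chosen with earlier results of these data known: all members are named, with the 3 longest sequence relatives and the 3 most alike tested miRNAs of each tested member. Relatives tied in length were taken in order of name, so others of the same length can be left out. Normalization, background, floor, filter, probe summary, blocks and leaving out arrays were tried as alternatives.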

Additional observations from a re-analysis of the deposited data

Results flagged for a closer look

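In 52 groups of 4 arrays checked for a single distant array, 5 stood apart, where chance gives about 1 in 20. The scaled log2 signal of miR-294 on CpG replicate 1 was -5.77, against a mean of -4.50 on the other 3 CpG arrays. A miR-290-5p probe, that with a span of 11 bases, read 18.8 units on CpG replicate 4, against a mean of 13.0 on the other 3. The miR-292-5p probe with a span of 11 bases read 9.70 units on CpG replicate 2, against a mean of -0.53 on the other 3. The miR-294 probe with a span of 20 bases read 6.82 units on untreated replicate 3, against a mean of 2.12 on the other 3. Untreated replicate 2 detected 203 mouse miRNAs, against a mean of 192 on the other 3 untreated arrays.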

How the results depend on the processing

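Without scaling all 4 tested members passed the threshold, among them miR-291b-5p (0.98) and miR-294 (1.30), and 88 of 212 miRNAs did (88 higher, 0 lower), against 30 (16 higher, 14 lower) with scaling. With quantile normalization miR-290-5p (0.80) and miR-292-5p (1.15) missed it, with 0 members and 19 miRNAs called, and without the filter on dim miRNAs 0 members (0.76 and 1.22) and 3 of 567 were called. Normexp with an offset of 50 reversed miR-290-5p (-0.20), miR-291b-5p (-0.24), miR-292-5p (-0.19) and miR-294 (-0.24) and called 143 miRNAs (4 higher, 139 lower). Scaling over all mouse miRNAs called 16 higher and 7 lower, the series table of the authors 17 higher and 5 lower, and a floor 2 times higher 14 higher and 34 lower, with miR-292-5p at 0.55; the cause of these shifts and of the reversal was not tested. Leaving out 1 array gave 0 to 2 members called, 5 to 68 miRNAs called, and differences of 0.67 to 0.90 for miR-290-5p, 1.09 to 1.49 for miR-292-5p, 0.26 to 0.81 for miR-294 and 0.11 to 0.32 for miR-291b-5p. miR-290-5p missed the threshold without CpG replicate 3 (0.70) or 4 (0.79) or untreated replicate 1 (0.71), 2 (0.68) or 3 (0.75), and miR-292-5p without CpG replicate 2 (1.20) or 3 (1.21) or untreated replicate 1 (1.09) or 2 (1.09). Without CpG replicates 2 and 4, the brightest arrays, an alternative chosen after seeing the data, miR-290-5p (0.98) and miR-292-5p (1.30) missed it, and 0 members and 4 miRNAs were called. Requiring 50% of a miRNA's spots to be well above background left 1 member, miR-290-5p, on at least 3 of 4 arrays of a group, in place of 4. By the detection flags, leaving out 1 array left 3 to 4 members, with detection on 3 arrays still required. Under that rule miR-294, detected on 3 CpG arrays only, drops out whenever 1 of those is left out. The replicate block, which takes same-numbered arrays as pairs, left 2 members called, miR-290-5p at 0.76 and miR-292-5p at 1.22. It called 38 miRNAs in all (16 higher, 22 lower). Same-numbered arrays correlated at 0.28, -0.26, 0.25 and 0.096 in their deviations from the group mean. In the same order, the highest correlation of each CpG array with a differently numbered untreated array was 0.29, 0.72, 0.012 and 0.19. With so few arrays these values cannot decide whether the numbers mark pairs, and the main fit did not use them. Restricting the fit to miRNAs detected on all 8 arrays gave no value for the members, since none was. The mean signals of miR-291b-5p, miR-292-5p and miR-294 lay near the lowest level called well above background, 7.26 to 10.5 units, with CpG and below it untreated, which limits what their differences can show.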
